A study of Mus musculus with 14 samples.

Results

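The 10 genes described here encode the regulators of energy metabolism that act around the PGC-1 coactivators: Ppargc1a and Ppargc1b, the peroxisome proliferator-activated receptors Ppara, Ppard and Pparg, the estrogen-related receptors Esrra, Esrrb and Esrrg, and the mitochondrial regulators Nrf1 and Tfam. They were picked by gene symbol with no threshold on a measured value, from a list drawn up with earlier results of these data known, and all 10 were found among the 49585 genes of both deposited RNA tables. RNA was sequenced from hind limb muscle of wild-type (WT) mice and Myf6 knockout (KO) mice, either left without injury or injured, with 3 libraries in each of the 4 groups. Myf6, also called MRF4, is a myogenic transcription factor of the basic helix-loop-helix family. The labels give neither the knockout allele nor the strain, sex or age of the mice, and they do not say how the muscle was injured or how long before sampling. WT and KO libraries carry different animal numbers, so genotype cannot be told apart from litter or batch. Binding of Myf6 was read from a ChIP-seq peak list made with a Flag antibody in primary myotubes grown from adult satellite cells, from 1 ChIP library and 1 control. The title of the series names a role of Myf6 in myokine signaling and the muscle stem cell pool. The values given here describe how the metabolic regulators stood in the same libraries.

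PGC-1 coactivators do not bind DNA themselves. They are recruited by transcription factors, among them the estrogen-related receptors, the PPARs and Nrf1, and in muscle they raise the transcription of genes for mitochondrial respiration and fatty acid oxidation. PPARs bind DNA as heterodimers with retinoid X receptors such as Rxra and respond to fatty acids and their derivatives. Ppara and Ppard act mainly on fatty acid use, and Pparg is the receptor that drives the formation of fat cells.

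Of the 10 regulators, Pparg had the largest difference between genotypes. It was at 5.48 ± 2.28 RPM in uninjured WT muscle and 16.6 ± 5.33 RPM in uninjured KO muscle, and at 3.35 ± 1.19 RPM in injured WT and 17.9 ± 10.0 RPM in injured KO muscle (SD, n = 3 in each group). RPM is the reads assigned to a gene, scaled to 1000000 reads assigned to all genes. The KO mean was 3.03 times the WT mean in uninjured and 5.35 times in injured muscle, and in both states every KO library was above every WT library. The KO libraries were above WT in this way for 6.2% of all genes tested without injury and 8.29% after it. With limma the difference had an unadjusted p = 0.00584 without injury and an unadjusted p = 0.0014 after it, and it did not pass over all genes (adjusted p = 0.175 and adjusted p = 0.162). The unadjusted p was under 0.05 for 14.2% of all genes without injury and 10.3% after it. None of the other 9 regulators passed the threshold of an adjusted p of 0.05 in any comparison of this test. Myf6 peaks in myotubes lay at Ppargc1a, Ppargc1b, Ppard, Esrrb and Esrrg, and none lay at Pparg. Of all protein-coding genes, 20.8% held a peak.

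The libraries differed in ways that touch these values. Recovered depth ran from 1880087 reads in uninjured WT replicate 2 to 49392472 in injured KO replicate 3, so that 3 reads were worth between 0.0607 and 1.60 RPM. Myf6 itself was between 25.0 and 121 RPM in the 6 WT libraries and between 1.86 and 3.46 RPM in the 6 KO libraries, which fits the labels. All 12 skeletal muscle markers were detected in every group, and their summed level was 161430 to 179241 RPM in uninjured WT and 208333 to 258870 RPM in uninjured KO, and 166749 to 208482 and 162917 to 209512 RPM after injury. In uninjured muscle 12 of 12 of these markers had a positive KO minus WT difference (median 0.48, beside -0.18 over all genes), and none passed the adjusted threshold. Injured KO replicate 2 stood apart from the other 2 injured KO libraries: mitochondrial genes took 23.2% of its reads against 4.95% and 4.30%, the nuclear RNA Malat1 was at 288 RPM against 80.4 and 73.4, and 7 nerve and Schwann cell markers summed to 1775 RPM against 317 and 468. Malat1 also differed with genotype, at 240, 213 and 284 RPM in uninjured WT and 90.8, 106 and 81.1 RPM in uninjured KO, and at 264, 494 and 249 RPM in injured WT. Mitochondrial reads were 18.1%, 22.3% and 13.8% in uninjured WT and 12.5%, 8.35% and 14.8% in injured WT. Uninjured KO replicate 2 held 15.3% against 6.76% and 3.63% in the other uninjured KO libraries. The part of these differences between libraries in the differences between genotypes, that of Pparg included, was not tested. Uninjured KO replicate 2 was the lowest of the 12 libraries for Ppargc1b, Ppard, Esrrg, Nrf1 and Tfam. Where a call or a sign turned on these libraries, the value without them is given. Whether 1 animal was used per library is not stated in so many words, and p-values measure the spread between these libraries.

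Myf6 peaks lay in the gene body or the 10 kb before it for 5 of the 10 regulators, against 20.8% of 21631 protein-coding genes. Strand was known only for genes with a listed promoter, 17274 of the protein-coding genes. For the others, Ppargc1b among them, the gene body alone was searched at every setting, which can lower the shares over all genes. The 10 genes are long: their median span was 107.4 kb, against 17.3 kb for all protein-coding genes, and a longer gene offers more room for a peak. With 50 kb before the gene, Ppara and Tfam joined, giving 7 of 10 against 31.5%. With the authors' fold enrichment required to be at least 10, 4 of 10 remained (Ppargc1b, Ppard, Esrrb and Esrrg), against 7.75%. The fold enrichment of each peak over its local background is the authors' value, and its median over all 12898 peaks was 7.68. The list came from a single ChIP library, so the peaks have no replicate check.

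Peaks at the proximal promoter were found for Ppargc1a and Ppard. Promoter windows of 300 bases, from 250 before to 50 after a listed transcription start, were taken from RefSeq (GRCm38.p6) and were present for 9 of the 10 regulators. In 2 of these 9 a peak overlapped the window (22.2%), against 1.42% of 17274 protein-coding genes with an entry. The part of each window under its peak is shown, on the strand of the gene, because these are the only stretches where a peak meets one of these windows. Ppargc1b had no window, so peaks at its promoter could not be looked for in this way. Capitals mark the E-box CANNTG, the core site that myogenic factors are known to bind.
Ppargc1a, chr5:51567839-51567965, minus strand: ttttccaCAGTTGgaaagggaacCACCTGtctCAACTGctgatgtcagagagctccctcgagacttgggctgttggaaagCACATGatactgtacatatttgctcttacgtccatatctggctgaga
Ppard, chr17:28232504-28232641, plus strand: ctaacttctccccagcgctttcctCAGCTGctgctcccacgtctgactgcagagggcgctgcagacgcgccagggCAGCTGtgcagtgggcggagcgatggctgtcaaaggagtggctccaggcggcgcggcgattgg

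The Ppargc1a stretch is the whole peak, from 114 to 240 bp before the start at position 51567725, with its summit 143 bp before it. It holds 4 E-boxes. The whole 250 bases before the Ppargc1a start held 6, a number reached by 0.151% of 17274 such windows. The Ppard stretch is 138 bases of a peak of 163 bp, whose remaining bases lie beyond the window, and its summit is 192 bp before the start at position 28232754. Both of its E-boxes are CAGCTG, and 0.961% of windows held at least 2 of these. The marks of 6 and 2 are the counts of these windows themselves, each the highest among the listed windows of the regulators. The letters CANNTG are common: they were present in 62.7% of all windows and in the first listed window of 7 of the 9 regulators. CAGCTG, which is one form of CANNTG, was present in 11.8% of windows and in 1 of 9. All motifs were searched on both strands of the 250 bases before the start. The further motifs of this pathway are different letters and do not overlap the E-box letters. The cAMP response element TGACGTCA was in 2.03% of windows and 0 of 9, and the estrogen-related receptor site AAGGTCA in 3.62% and 0 of 9. A match describes these letters only.

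The peaks of highest fold at the group were at Ppargc1b, Esrrg and Esrrb. Ppargc1b held 6 peaks within its body, and the highest had a fold of 18.02, above 97.1% of all peaks. The distance of these 6 from a start was not measured. Esrrg held 5 peaks, all inside the gene, of which 4 lay together between 89.8 and 96.9 kb before a listed start. The highest of these 4, with its summit 93.0 kb before that start, had a fold of 14.32, above 92.5% of all peaks. Esrrb held a peak of fold 12.08 with its summit 3.38 kb after its first listed start, and another of fold 11.59 that was 61.9 kb after the second. A further Esrrb peak, of fold 3.63, had its summit 0.23 kb after the first listed start, just beyond the promoter window. The promoter peaks were of lower rank, with a fold of 10.15 at Ppard (above 77.3% of peaks) and 6.72 at Ppargc1a (above 35.0%). Ppargc1a held 4 further peaks with folds from 3.39 to 7.25, and Ppard 1 further peak of 8.70. The bodies of Ppara, Pparg, Esrra, Nrf1 and Tfam and the 10 kb before them held no peak in this list. The peaks were called in cultured myotubes and the RNA came from whole muscle, so binding and level were not measured in the same cells.

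**Figure D1:**
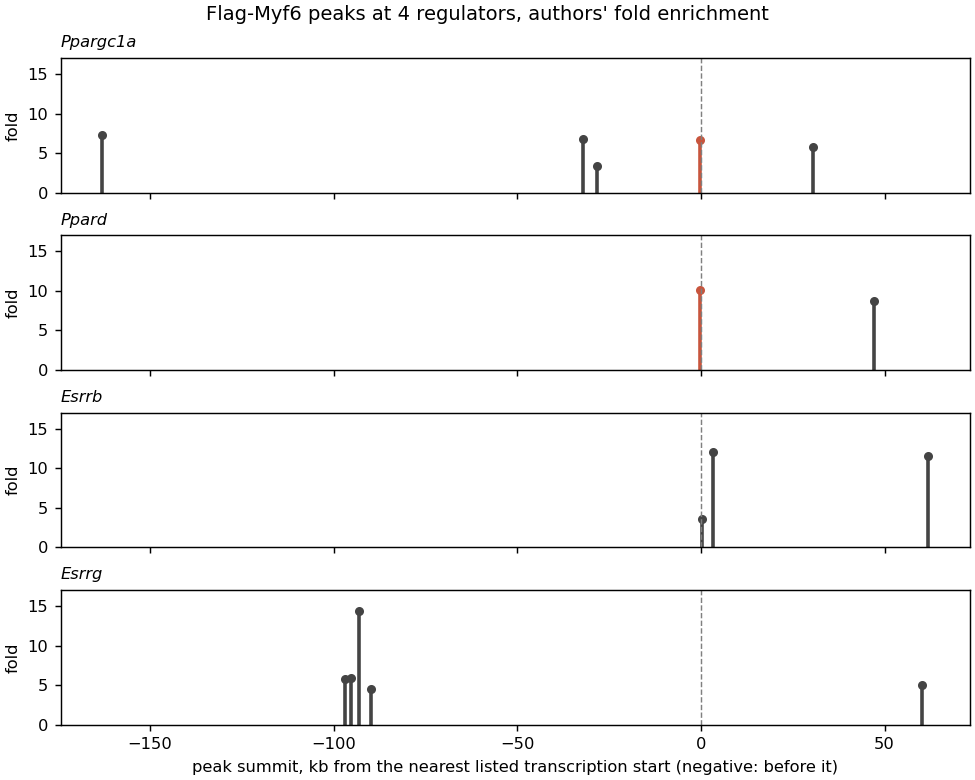
Position of the Myf6 peak summits at Ppargc1a, Ppard, Esrrb and Esrrg, in kb from the nearest listed transcription start (negative values lie before it), against the authors' fold enrichment over local background; red stems are peaks that overlap the promoter window. The red stems stand at 0.143 kb before the listed Ppargc1a start and 0.192 kb before the listed Ppard start. Of the 5 Esrrg peaks, 4 lie between 89.8 and 96.9 kb before a listed start that is inside the gene, and they too lie inside the gene.

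Levels of the regulators are given next by role, as RPM in replicates 1, 2 and 3. Transcript lengths were not used, so levels are compared between libraries and not between genes.

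Ppargc1a encodes PGC-1 alpha, the coactivator that exercise induces in muscle. It was at 10.9, 7.98 and 14.3 RPM in uninjured WT and at 7.72, 8.66 and 18.5 RPM in uninjured KO muscle. In injured WT it was at 14.6, 22.0 and 15.6 RPM, and in injured KO at 16.9, 7.08 and 17.8 RPM. The genotypes overlapped in both states, and the highest and lowest of the 12 libraries were the second injured WT and the second injured KO library. KO minus WT was 0.00 ± 0.41 (SE) on the log2(RPM + 1) scale in uninjured muscle, with a 95% interval of -0.92 to 0.92, and -0.37 ± 0.36 in injured muscle, with an interval of -1.22 to 0.48.

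Ppargc1b encodes PGC-1 beta, a related coactivator of mitochondrial genes. It was at 3.77, 4.79 and 3.59 RPM in uninjured WT muscle, and at 3.12, 0.630 and 3.34 RPM in uninjured KO muscle, where every library was below every WT library. In injured muscle every KO library was above every WT library, with 3.23, 2.47 and 2.33 RPM in WT and 3.72, 4.37 and 3.36 RPM in KO. KO minus WT was -0.71 ± 0.46 in uninjured muscle (limma, adjusted p = 0.523) and 0.39 ± 0.20 in injured muscle (adjusted p = 0.558). The uninjured difference was -0.25 without KO replicate 2, the library at 0.630 RPM. Neither separation held under every scaling: upper quartile scaling ended the uninjured one and scaling outside mitochondrial genes the injured one.

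Among the receptors, Ppara was near the limit of detection. It was at 0.354, 1.06 and 0 RPM in uninjured WT and 0.456, 1.5 and 1.43 RPM in uninjured KO muscle, and the value of 1.06 RPM rests on 2 reads. In injured muscle it was at 0.525, 0.299 and 0.727 RPM in WT and 0.964, 0.498 and 0.688 RPM in KO, under the minimum for the test of that state. The uninjured KO minus WT difference was 0.55 ± 0.43 (limma, adjusted p = 0.606). Ppard, the main PPAR of muscle, was at 12.8, 8.51 and 12.6 RPM in uninjured WT and 12.1, 8.34 and 23.7 RPM in uninjured KO muscle. In injured muscle Ppard was at 13.2, 13.9 and 11 RPM in WT and 18.4, 10.9 and 20.1 RPM in KO. Its genotypes overlapped in both states, with differences of 0.26 ± 0.41 and 0.31 ± 0.26.

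Pparg was at 5.50, 3.19 and 7.74 RPM in uninjured WT and 20.5, 10.5 and 18.9 RPM in uninjured KO muscle. In injured muscle it was at 3.90, 1.98 and 4.17 RPM in WT and 29.4, 10.9 and 13.4 RPM in KO. The lowest KO library, the second of the uninjured, was thus above the highest WT library. KO minus WT was 1.46 ± 0.41 in uninjured and 2.04 ± 0.40 in injured muscle, with 95% intervals of 0.54 to 2.38 and 1.09 to 2.98. KO replicate 1 had the highest Pparg and KO replicate 2 the lowest KO value in each state.

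The call on Pparg depended on the test. The uninjured difference passed an adjusted p of 0.05 with DESeq2 on the recovered reads (1.72, adjusted p = 0.00104), with upper quartile scaling (1.69, adjusted p = 0.0458) and in the authors' deposited table (1.73 ± 0.40, q = 0.0062). It missed it with edgeR (1.73, adjusted p = 0.0642). The injured difference passed with DESeq2 (2.43, adjusted p = 8.41e-05) and in the authors' deposited table (2.46 ± 0.48, q = 0.000201), and missed it with edgeR (2.42, adjusted p = 0.157). The direction held throughout: over all settings tried the uninjured difference ran from 1.17 to 1.74 and the injured from 1.63 to 2.46, and the adjusted p from 0.00104 to 0.653 and from 8.41e-05 to 0.607. In uninjured muscle DESeq2 called 5.32% of all genes, 2.74% higher in KO, and upper quartile scaling called 1.25%, 0.801% higher in KO. In injured muscle DESeq2 called 3.38%, 1.66% higher in KO. The authors' deposited table called 1.43% of its genes in uninjured muscle, 0.731% higher in KO, and 0.893% in injured muscle, 0.492% higher in KO.

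**Figure D2:**
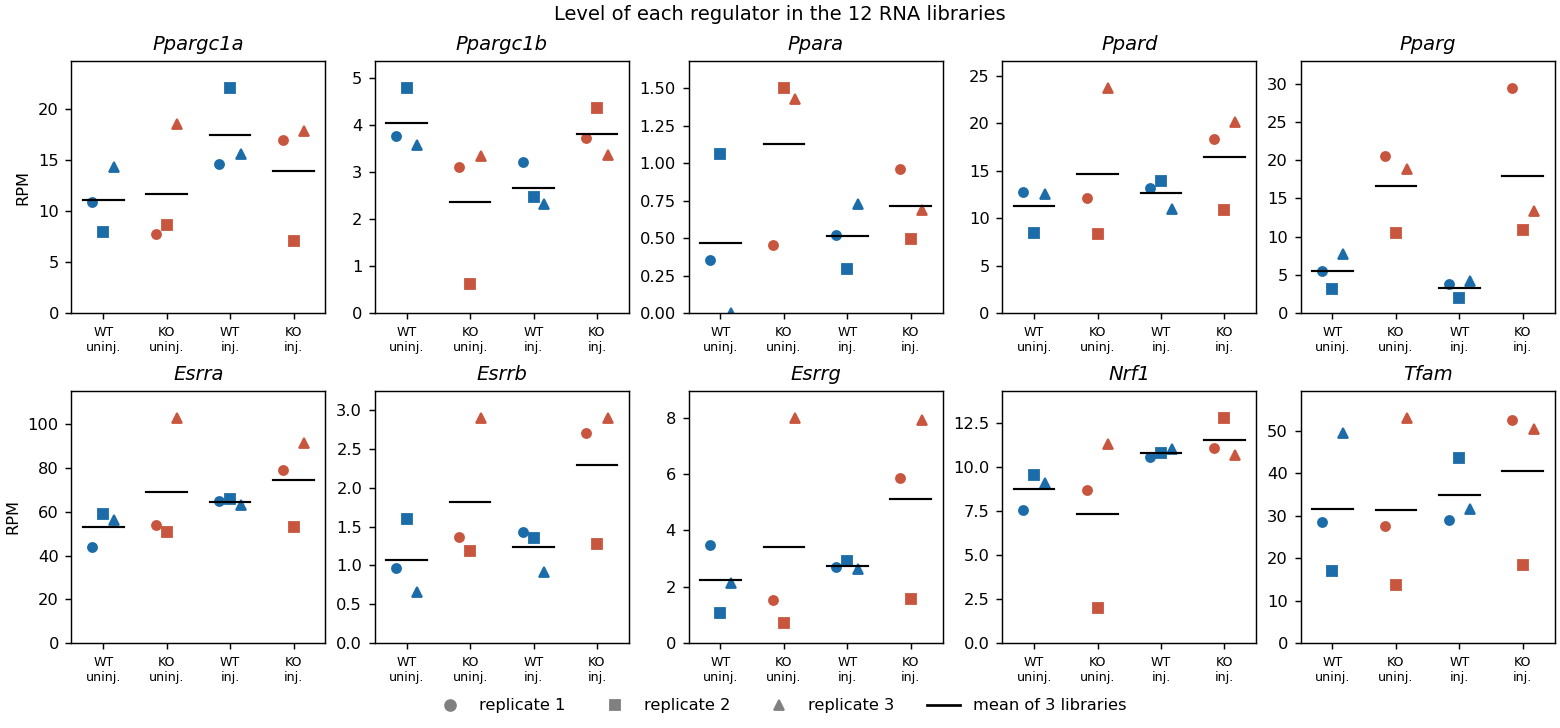
RPM of each of the 10 regulators (vertical axes, each with its own scale from 0) in the 12 libraries by group, with WT in blue, KO in red, marker shapes for replicates 1 to 3 and a black line at the mean of 3. All 6 KO points of Pparg lie at or above 10.5 RPM and all 6 WT points at or below 7.74 RPM. Ppargc1b is lower in KO without injury and higher in KO after it, and in the other 8 panels the genotypes overlap in both states.

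Esrra, the estrogen-related receptor that works most closely with PGC-1 alpha, was at 43.9, 59.0 and 56.1 RPM in uninjured WT and 54.2, 50.6 and 103 RPM in uninjured KO muscle. In injured muscle it was at 64.8, 65.9 and 63.3 RPM in WT and 79.3, 53.2 and 91.5 RPM in KO. The 3 injured WT libraries were close together, and the KO libraries lay on both sides of them. Esrrb, best known from embryonic stem cells, was at 0.965, 1.60 and 0.659 RPM in uninjured WT and 1.37, 1.18 and 2.90 RPM in uninjured KO muscle. In injured muscle Esrrb was at 1.43, 1.35 and 0.919 RPM in WT and 2.70, 1.27 and 2.90 RPM in KO, and its genotypes overlapped through KO replicate 2.

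Esrrg, which is known to be high in oxidative muscle fibers, varied most after Pparg. It was at 3.48, 1.06 and 2.14 RPM in uninjured WT and 1.52, 0.708 and 8.00 RPM in uninjured KO muscle, so that the uninjured KO libraries held both the lowest and the highest value of the 12. In injured muscle Esrrg was at 2.70, 2.92 and 2.64 RPM in WT and 5.86, 1.55 and 7.92 RPM in KO. KO minus WT was 0.14 ± 0.62 in uninjured and 0.52 ± 0.45 in injured muscle. For Esrra the differences were 0.31 ± 0.33 and 0.17 ± 0.22, and for Esrrb 0.42 ± 0.40 and 0.53 ± 0.27.

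Nrf1, the nuclear factor that activates genes for respiratory chain subunits and for Tfam, was at 7.59, 9.57 and 9.09 RPM in uninjured WT and 8.71, 1.97 and 11.3 RPM in uninjured KO muscle. In injured muscle it was at 10.6, 10.8 and 11 RPM in WT and 11.1, 12.8 and 10.7 RPM in KO, a narrow range in which the genotypes overlapped. Tfam, the protein that packages mitochondrial DNA and starts its transcription, was at 28.4, 17 and 49.4 RPM in uninjured WT and 27.6, 13.6 and 53.0 RPM in uninjured KO muscle. In injured muscle Tfam was at 29.0, 43.6 and 31.6 RPM in WT and 52.5, 18.4 and 50.4 RPM in KO. KO minus WT of Nrf1 was -0.46 ± 0.53 in uninjured and 0.09 ± 0.16 in injured muscle, and that of Tfam was -0.08 ± 0.52 and 0.10 ± 0.41. Without uninjured KO replicate 2 the uninjured difference was 0.17 for Nrf1 and 0.39 for Tfam, both of the other sign. The sign of the uninjured Tfam difference also turned with upper quartile scaling (0.17) and with DESeq2 (0.10). The mitochondrial share of reads, the product that Tfam serves, ran from 13.8% to 22.3% in uninjured WT and from 3.63% to 15.3% in uninjured KO libraries. In injured muscle it was 12.5%, 8.35% and 14.8% in WT and 4.95%, 23.2% and 4.30% in KO. Both this share and Tfam overlapped between the genotypes in each state.

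Counted over the group, 0 of 10 regulators passed limma's adjusted threshold between genotypes in uninjured muscle, where 0.281% of 12460 genes did. In injured muscle 0 of the 9 tested passed, where 0.269% of 12625 genes did. With edgeR the counts were 0 and 0 as well, against 0.441% and 0.261% of all genes. Before adjustment, 1 regulator was under 0.05 in each state, Pparg, where 14.2% and 10.3% of all genes passed that mark. The median difference of the 10 was 0.20 in uninjured muscle, beside -0.18 over all genes tested, and that of the 9 was 0.31 in injured muscle, beside 0.01. The all-gene median in uninjured muscle moved with the scaling, from -0.32 when scaled to reads outside mitochondrial genes to 0.04 with upper quartile scaling. KO and WT libraries did not overlap for 2 of 10 regulators in uninjured muscle (Pparg above, Ppargc1b below), where 21.7% of all genes did not overlap, 6.2% above and 15.5% below. In injured muscle they did not overlap for 2 of 9 (Pparg and Ppargc1b, both above), where 16.9% did not overlap, 8.29% above and 8.63% below. An exact two-sided permutation test of 3 libraries against 3 gives p = 0.1 for each of these 4, the smallest it allows. The separation of Pparg held under both other scalings in each state. That of Ppargc1b was lost with upper quartile scaling in uninjured muscle, where Ppard and Pparg were above, and with scaling outside mitochondrial genes in injured muscle, where Pparg and Esrrb were above.

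**Figure D3:**
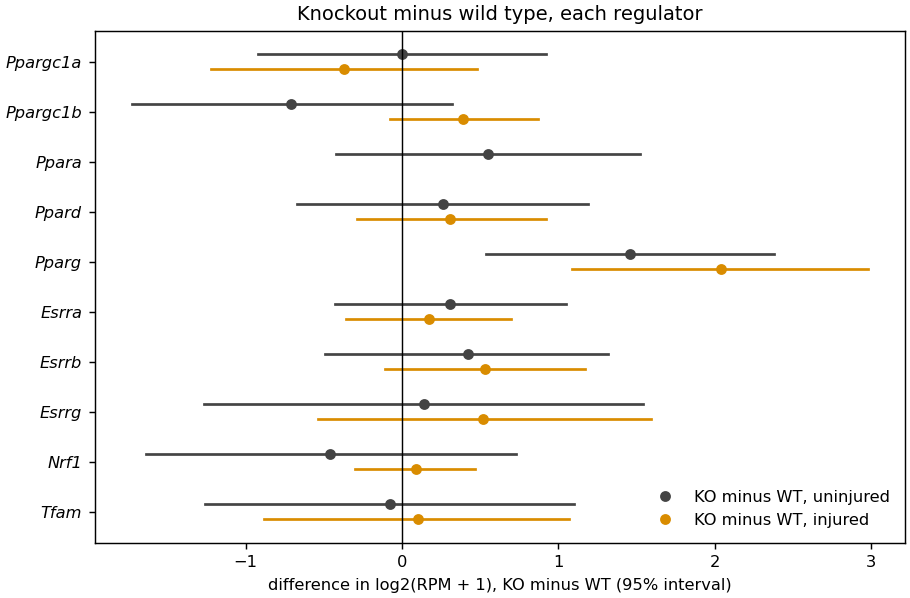
Difference in log2(RPM + 1), KO minus WT, of each regulator in uninjured (grey) and injured (orange) muscle; points are limma estimates from 3 libraries against 3 and bars their 95% intervals, unadjusted. The intervals of Pparg, 0.54 to 2.38 and 1.09 to 2.98, lie above 0 and all others cross it; Ppara was not tested in injured muscle.

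The injured comparison turned on 1 library. Without injured KO replicate 2, limma called 3 of 9 regulators higher in KO: Pparg (2.31, adjusted p = 0.0113), Esrrg (1.06, adjusted p = 0.0165) and Esrrb (0.78, adjusted p = 0.0448). The same fit called 19.0% of all genes, and 9.49% of all genes were called higher in KO. Ppard missed the threshold there (0.57, adjusted p = 0.0503), as did Tfam (0.58, adjusted p = 0.0725) and Esrra (0.39, adjusted p = 0.0731). The 2 remaining KO libraries lay above all 3 WT libraries for 7 of 9 regulators, where 30.4% of all genes had KO above and 56.5% had no overlap in either direction. Ppargc1a then differed by 0.02 and Nrf1 by 0.02. The lone pair of KO libraries in that fit came from replicates 1 and 3.

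The fat cell markers Adipoq and Plin1, chosen after their values were seen, were set beside Pparg library by library. No association with Pparg was computed. Adipoq, which encodes the hormone adiponectin, was at 21.2, 18.1 and 70.9 RPM in uninjured WT and 132, 37.3 and 105 RPM in uninjured KO muscle. In injured muscle Adipoq was at 17.8, 3.97 and 34.4 RPM in WT and 172, 24.4 and 74.1 RPM in KO. Plin1, the protein coat of fat droplets, was at 6.05, 9.57 and 36.4 RPM in uninjured WT and 62.4, 19.4 and 81.3 RPM in uninjured KO, and at 10.7, 2.96 and 14.5 RPM in injured WT and 110, 13.1 and 50.5 RPM in injured KO. For both markers the genotypes overlapped, in each state through KO replicate 2 and WT replicate 3.

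Of the 10 adipocyte markers, 9 had a positive KO minus WT difference in uninjured and 8 in injured muscle, with medians of 0.86 and 1.33. None passed the adjusted threshold, but before adjustment 5 were higher and 1 lower at p under 0.05 without injury, and 4 were higher after it. Lep, which encodes the satiety hormone leptin, had the smallest p of the list in uninjured muscle, at 1.22 ± 0.364 RPM in WT and 9.93 ± 5.31 RPM in KO (limma, 2.21 ± 0.42, adjusted p = 0.0689). KO libraries were all above WT for 3 of the 10, Lep, Cidec and Lipe, in uninjured muscle, where 6.2% of all genes were. In injured muscle they were above for Lipe, where 8.29% of all genes were, and below for Car3, at 3937, 2767 and 2992 RPM in WT and 2692, 568 and 2445 RPM in KO. Plin4 had means of 107 RPM in WT and 120 RPM in KO without injury, and of 139 RPM in both genotypes after it. No adipocyte marker was at 0 in all 3 libraries of a group. Their summed level was 3427 to 7214 RPM in uninjured WT, 2977 to 5143 in uninjured KO, 3299 to 5376 in injured WT and 2500 to 6020 in injured KO. Car3 made up much of these sums, at 2081 to 5452 RPM in uninjured WT, and it is a gene that muscle fibers express as well. Mean Car3 was 4131 RPM in WT and 1751 RPM in KO without injury, and 3232 and 1902 RPM after it. A sum without Car3 was not taken, so these sums do not show how the other markers stood beside Pparg. Of the brown fat markers, Ucp1, the heat-producing uncoupling protein, was at 11.5 ± 12.1 RPM in uninjured WT and 58.9 ± 39.2 RPM in uninjured KO muscle (2.49 ± 0.66, adjusted p = 0.154). In injured muscle Ucp1 was at 11 ± 10.7 RPM in WT and 40.5 ± 23.3 RPM in KO, and the genotypes overlapped. KO libraries were all above WT for 1 of 5 brown fat markers in uninjured and 0 of 5 in injured muscle.

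Pparg and the markers Adipoq and Plin1 did not rank all libraries alike. Of the 10 listed markers, Lipe was above WT in every KO library of each state, as Pparg was. The genotypes overlapped for 7 of the 10 without injury and for 8 after it. Injured KO replicate 2 had Pparg at 10.9 RPM with Adipoq at 24.4 and Plin1 at 13.1 RPM. Uninjured WT replicate 3 had more of both markers, Adipoq at 70.9 and Plin1 at 36.4 RPM, and less Pparg, at 7.74 RPM. Injured WT replicate 3 likewise had Adipoq at 34.4 RPM with Pparg at 4.17 RPM. The part that fat cells in the dissected muscle had in the Pparg difference was not tested. In bulk tissue, more cells of a type and more RNA per cell cannot be told apart. Over the markers of 6 further cell types (endothelium, macrophages, fibro-adipogenic cells, satellite cells, nerve and blood), none passed the adjusted threshold in either state. Pdgfra, the marker of the fibro-adipogenic cells from which fat cells of muscle arise, was at 23.3 ± 7.34 RPM in uninjured WT and 9.58 ± 6.25 RPM in uninjured KO muscle (-1.39 ± 0.53, adjusted p = 0.285). The Pparg difference was 1.34 and 2.05 when reads were scaled outside mitochondrial genes.

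**Figure D4:**
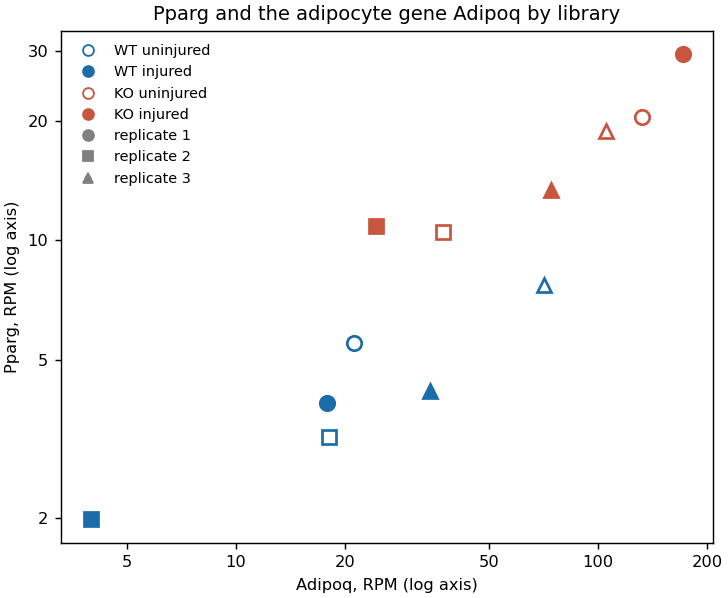
Pparg against the adipocyte gene Adipoq in the 12 libraries, both in RPM on log axes, with WT in blue, KO in red, open markers for uninjured and filled for injured muscle, and marker shapes for replicates 1 to 3. The WT libraries lowest and highest in Adipoq, at 3.97 and 70.9 RPM, were also lowest and highest of the WT libraries in Pparg, and the KO libraries at 24.4 and 37.3 RPM of Adipoq lie above the WT library at 70.9 RPM.

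Genes whose profile over the 12 libraries was most like that of Pparg were Aoc3, Slc1a3 and Lipe, with root mean square differences of 0.289, 0.309 and 0.369 on the centred log2(RPM + 1) scale. Lipe encodes hormone-sensitive lipase, Aoc3 an amine oxidase abundant in fat and vessel walls, and Slc1a3 a glutamate transporter. Aoc3 was at 18.7, 19.1 and 31.5 RPM in uninjured WT and 77.1, 34.6 and 54.6 RPM in uninjured KO muscle. For Esrrg, the regulator with the next widest range, the most alike were Ppp6r2 (0.254), a phosphatase subunit, Wwp1 (0.269), a ubiquitin ligase, and Akirin1 (0.273), a nuclear protein. Wwp1 was at 103, 54.3 and 138 RPM in uninjured WT and 92.2, 53.1 and 245 RPM in uninjured KO muscle, with replicate 2 low and replicate 3 high among the KO libraries, as for Esrrg. Over the 12 libraries Pparg spanned 3.35 on the log2(RPM + 1) scale, Esrrg 2.40, Nrf1 2.22, Tfam 1.88, Ppargc1b 1.83, Ppargc1a 1.51, Ppard 1.40, Ppara 1.32, Esrrb 1.23 and Esrra 1.21.

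Injury in the same animals was compared next, taking the number shared by an uninjured and an injured library as the animal. The labels give the injured limb as R and the uninjured as L only through these library names. In WT muscle 0 of 10 regulators passed with limma, as did 0% of 13337 genes, and 172 genes (1.29%) had an unadjusted p under 0.05, none of them a regulator. In KO muscle 0 of 10 and 0% of genes passed, and 468 genes (3.51%) had an unadjusted p under 0.05, again with no regulator. DESeq2 and edgeR also called 0 genes in both. Ppargc1a was higher in the injured limb of 3 of 3 WT animals, by 0.39, 1.36 and 0.11, with a mean of 0.62 ± 0.40 (SE). Esrra and Nrf1 were higher there in 3 of 3 WT animals too. Esrra differed by 0.55, 0.16 and 0.17 (mean 0.29 ± 0.29) and Nrf1 by 0.43, 0.16 and 0.25 (mean 0.28 ± 0.42). Pparg was lower in 3 of 3, by -0.41, -0.49 and -0.76. The share of all genes with the same sign in 3 of 3 animals was not counted, so these counts have no background to be read against. The errors given for injury are those of the limma fit to all 12 libraries, which did not pair the limbs. They are not the spread of the differences listed by animal. In KO animals the largest mean was that of Nrf1, 0.82 ± 0.42 (limma, adjusted p = 0.728), with 0.32, 2.22 and -0.07 in the 3 animals. Without both libraries of KO animal 2 it was 0.12, below the 0.72 of Esrrg. Pparg in KO animals differed by 0.50, 0.04 and -0.46. The median over the 10 regulators was 0.20 in WT, beside 0.09 over all genes, and 0.24 in KO, beside 0.29. The all-gene median in KO was 0.07 with edgeR, 0.06 with DESeq2 and -0.02 with upper quartile scaling, and under these 3 the small KO differences of Ppard, Pparg and Esrra turned negative.

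Ppargc1b had injury differences of opposite sign in the genotypes, and neither passed the test (limma, adjusted p = 1 in WT and 0.728 in KO). It was lower in the injured limb of all 3 WT animals, by -0.17, -0.74 and -0.46, and higher in all 3 KO animals, by 0.20, 1.72 and 0.006. The last value is smaller than the all-gene median of 0.29 in KO, which was 0.07 or less with edgeR, DESeq2 and upper quartile scaling. The genotype by injury term was 1.1 ± 0.51 (limma, unadjusted p = 0.0495), and over 13337 genes it did not pass (adjusted p = 1). No gene passed for this term, 0%, and 208 genes (1.56%) had an unadjusted p under 0.05, Ppargc1b being the 1 regulator among them. edgeR and DESeq2 also called 0 genes. Without both libraries of KO animal 2 the Ppargc1b term was 0.56. The uninjured library of that animal had 8 reads of Ppargc1b. That of WT animal 2, on which the difference of -0.74 rests, had 9 reads. The share of all genes with opposite signs in all WT and all KO animals was not counted. For Pparg the term was 0.58 ± 0.59, so that the wider KO difference after injury was within the error.

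**Figure D5:**
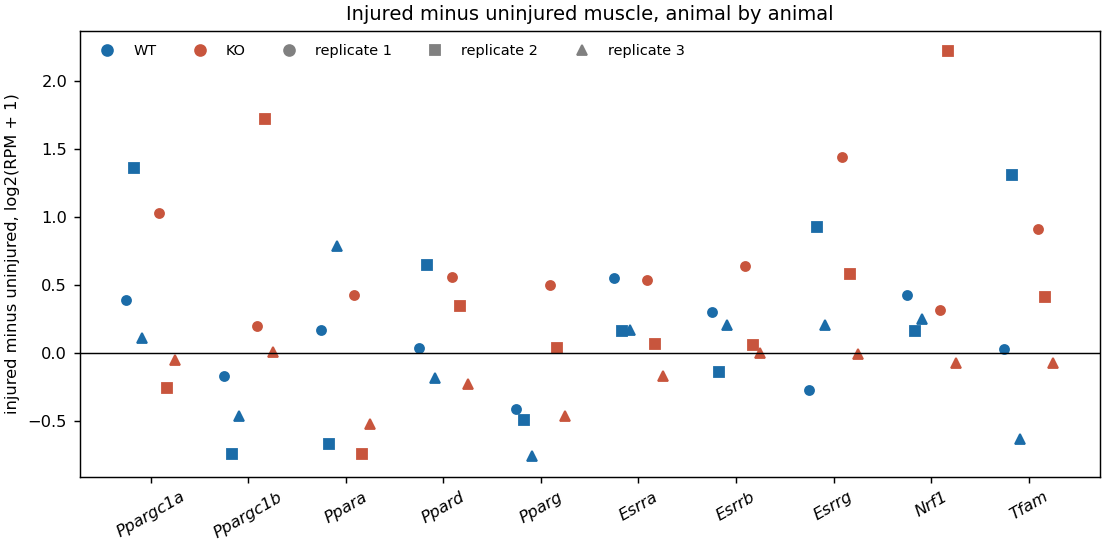
Injured minus uninjured difference in log2(RPM + 1) of each regulator within each animal, with WT in blue, KO in red and marker shapes for replicates 1 to 3. The 3 WT points of Ppargc1b lie below 0 and its 3 KO points at or above 0.006, and the KO animal 2 points of Ppargc1b (1.72) and Nrf1 (2.22) are the highest of their genes.

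Partners and targets of the regulators were read from lists of genes chosen for their role. Of 34 coregulators and partners, 0 passed with limma in either state. Rxra, the retinoid X receptor that pairs with the PPARs, was at 62.6, 76.6 and 90.1 RPM in uninjured WT and 152, 116 and 200 RPM in uninjured KO muscle, with every KO library above every WT library. Its difference of 1.0 ± 0.29 had an unadjusted p = 0.00658 and adjusted p = 0.179 with limma, and it passed with DESeq2 (1.21, adjusted p = 0.000691), with upper quartile scaling (1.26, adjusted p = 0.0435) and in the authors' deposited table (1.21 ± 0.28, q = 0.00594). In injured muscle Rxra was at 69.5, 100 and 73.4 RPM in WT and 172, 82.4 and 175 RPM in KO (0.75 ± 0.33, adjusted p = 0.497). Without injured KO replicate 2 the Rxra difference was 1.11 (adjusted p = 0.0114). Sirt1, the deacetylase that acts on PGC-1 alpha, was at 13.8 ± 4.96 RPM in uninjured WT and 5.44 ± 0.990 RPM in uninjured KO (-1.16 ± 0.36, adjusted p = 0.208). In injured muscle Sirt1 was at 11.8 ± 3.46 and 6.53 ± 0.567 RPM (-0.73 ± 0.23, adjusted p = 0.362). The median of the list was -0.16 in uninjured and 0.06 in injured muscle, near the all-gene medians of -0.18 and 0.01.

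Of 26 PPAR targets in fatty acid uptake, storage and oxidation, 24 were tested in uninjured and 25 in injured muscle, and 0 passed with limma in either. At an unadjusted p under 0.05 there were 0 in uninjured and 3 in injured muscle, all higher in KO, where 14.2% and 10.3% of all genes passed that mark. The list medians were 0.11 and 0.45. Ucp2, a mitochondrial carrier, was at 19.3, 9.32 and 11.8 RPM in injured WT and 25.5, 28.7 and 27.6 RPM in injured KO muscle (1.02 ± 0.27, adjusted p = 0.278). Its uninjured difference was of like size, 1.06 ± 0.49 (adjusted p = 0.367). Cd36, the fatty acid transporter, was at 148 ± 48.1 RPM in injured WT and 289 ± 61.8 RPM in injured KO (0.99 ± 0.29, adjusted p = 0.328). DESeq2 called both in injured muscle, with adjusted p = 0.0423 for Ucp2 and 0.0464 for Cd36. Limma did so without injured KO replicate 2, with adjusted p = 0.0466 and 0.0342, in the fit that called 19.0% of all genes. Plin2, which coats fat droplets, was at 24.8 ± 4.95 RPM in uninjured WT and 55.4 ± 30.6 RPM in uninjured KO (0.96 ± 0.45, adjusted p = 0.379), and DESeq2 called it there (1.25, adjusted p = 0.0214). Fat cells express Cd36 and Plin2 too.

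All 30 targets of the estrogen-related receptors and PGC-1, mostly of the citric acid cycle and respiratory chain, were tested and 0 passed. Their medians were 0.05 and 0.00, with 16 of 30 differences positive in each state. Vegfb, a growth factor made with the respiratory program, was at 89.4 ± 14.3 RPM in uninjured WT and 139 ± 8.45 RPM in uninjured KO (0.64 ± 0.24, adjusted p = 0.279), and the mitochondrial creatine kinase Ckmt2 was at 1160 ± 108 and 749 ± 212 RPM (-0.66 ± 0.27, adjusted p = 0.311). In injured muscle Mfn2, a mitochondrial fusion protein, was at 270 ± 18.5 RPM in WT and 383 ± 63.6 RPM in KO (0.49 ± 0.19, adjusted p = 0.452). The cytochrome oxidase subunit Cox5b was at 575 ± 64.7 and 421 ± 54.3 RPM (-0.45 ± 0.19, adjusted p = 0.478). Without injured KO replicate 2 limma called Mfn2 (0.63, adjusted p = 0.0231) and Cox5b (-0.55, adjusted p = 0.0435).

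Among 19 genes of mitochondrial DNA transcription and replication, the step that Tfam serves, 0 passed with limma in either state, and medians were -0.02 and -0.16. Mterf3, a repressor of mitochondrial transcription, was at 21.6 ± 2.07 RPM in uninjured WT and 7.62 ± 4.45 RPM in uninjured KO muscle (-1.54 ± 0.43, adjusted p = 0.175). In injured muscle Mterf3 was at 22.7 ± 5.6 RPM in WT and 13.7 ± 1.1 RPM in KO (-0.66 ± 0.21, adjusted p = 0.364), again with every KO library below every WT library. DESeq2 called the uninjured difference (-1.40, adjusted p = 0.0195). Slirp, which stabilises mitochondrial messenger RNA, was at 122 ± 12.6 RPM in uninjured WT and 62.1 ± 16.0 RPM in uninjured KO (-1.0 ± 0.28, adjusted p = 0.175). Ssbp1, which binds single-stranded mitochondrial DNA, was at 45.8 ± 7.37 and 30.9 ± 0.972 RPM in injured WT and KO (-0.54 ± 0.18, adjusted p = 0.385). The part that the mitochondrial share of reads, given above by library, had in these differences was not tested.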

How the data were processed

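Total RNA was extracted with Trizol and made into libraries with the TruSeq RNA v2 kit, per the labels' protocols. Per the file headers, the authors deposited RPM per gene and library for 49585 genes. Beside these stand the authors' log2 fold change and its error, with a p-value and q-value each. Their sign is WT over KO and was turned here. The submitters' processing notes name HISAT2 2.1.0, Bowtie 1.1.0, MACS2 2.1.0.20140616, SAMtools, featureCounts and DESeq2, and the builds mm10 and GRCm38.p5, without roles. Strand use in counting is not given in the sources used here. MACS2 called the peaks at q 0.05, per the file headers. For each peak the deposited list gives a pileup signal, a fold enrichment ratio and −log10 values of p and q. Its coordinates were read as GRCm38, which both builds and the RefSeq table (GRCm38.p6) share.

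Whole reads were recovered from the RPM steps: 100% of testable values in each library were whole within 0.1 read. Totals ran from 1880087 to 49392472 reads. Floors of 3 reads cover counting error only. Log2(RPM + 1) was tested with limma 3.58.1 in R 4.3.3 (lmFit, then eBayes with trend). A gene was tested when 3 or more fitted libraries had 1 RPM or more. P-values were two-sided and adjusted after Benjamini and Hochberg over all genes, with a threshold of 0.05. This scale understates the change of low genes. KO against WT used its own 6 libraries, and injury and interaction all 12. Only the limma fit was tested on simulated data, which had an even spread and no outlying library. The edgeR and DESeq2 fits were not tested in this way. Alternatives were edgeR 4.0.16 and DESeq2 1.42.0 on recovered reads, 2 scalings, 2 filters, a pseudocount of 0.1, blocking by replicate, leaving out single libraries, all 12 libraries in 1 fit, and the authors' q-values. Leaving out both libraries of KO animal 2 was chosen after seeing the data.

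Animal numbers pair the uninjured and injured libraries of a genotype. Deviations from the group means correlated by 0.279, -0.232 and 0.0215 in WT and 0.0295, 0.507 and 0.636 in KO. The members and lists were chosen with earlier results of these data known. All 10 regulators are named. Of each list, up to 4 genes past the threshold were to be named by size, or else the 2 with the smallest p per comparison between genotypes, and not all of these are printed for cell type markers. The 3 genes most alike are given for the 2 regulators of widest range. Adipoq, Plin1, Car3 and Cidec were chosen after their values were seen. Promoter windows were matched by symbol for 9 of 10 regulators. Exons and introns were not assigned to peaks.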

Additional observations from a re-analysis of the deposited data

Results flagged for a closer look

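Ppargc1b was lower after injury in all 3 WT animals and higher in all 3 KO animals, in 1 of them by only 0.006, and the genotype by injury difference was 1.1 on the log2(RPM + 1) scale. The test of that difference itself gave an unadjusted p = 0.0495 with limma, and adjusted over all genes it did not pass. The direction held in the 20 alternatives, which ran from 0.56 to 1.54. The 0.56 is the value without both libraries of KO animal 2. How many of all genes had opposite signs in all WT and all KO animals was not counted.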

How the results depend on the processing

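Between genotypes in uninjured muscle 1 regulator, Pparg, was called in place of 0 with DESeq2, with upper quartile scaling, with the replicate block and by the authors' deposited q-values; in injured muscle it was called with DESeq2 and by the authors' q-values. Leaving out 1 library in turn gave 0 to 3 called and 2 to 7 without overlap in injured muscle, the higher values without KO replicate 2. Same-numbered WT and KO libraries correlated by 0.034 to 0.384 in uninjured muscle, against -0.327 to 0.0981 for differently numbered ones. In injured muscle the ranges were -0.612 to -0.304 and -0.553 to 0.654, so replicate numbers did not pair the genotypes there. The replicate block gave Pparg 1.46 (adjusted p = 0.0213, with 6.04% of all genes called) in uninjured muscle and 2.04 (adjusted p = 0.376) in injured muscle. The animal as a block changed no call on a regulator.

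Small differences changed sign, and the cause was not tested. Ppargc1a KO minus WT in uninjured muscle was -0.14 outside mitochondrial genes and -0.0016 with a pseudocount of 0.1. Tfam there was 0.09 with edgeR, 0.10 with DESeq2, 0.17 with upper quartile scaling and 0.11 in the authors' deposited table. With edgeR, DESeq2 and upper quartile scaling, the injury difference in KO was -0.05, -0.06 and -0.12 for Ppard, -0.15, -0.15 and -0.32 for Pparg, and -0.14, -0.14 and -0.22 for Esrra; with the last, Ppargc1a was -0.10. The genotype by injury term was -0.15, -0.13 and -0.21 for Ppard and -0.21, -0.28 and -0.05 for Esrrb, and -0.10 for Tfam with the last. Without both libraries of KO animal 2 it was -0.0022 for Ppard and -0.16 for Nrf1.

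With 1 library left out, KO minus WT in uninjured muscle ran from -0.36 to 0.22 for Ppargc1a, -0.13 to 0.57 for Ppard, -0.01 to 0.50 for Esrra, -0.57 to 0.63 for Esrrg, -0.86 to 0.17 for Nrf1 and -0.55 to 0.39 for Tfam. In injured muscle it ran from -0.59 to 0.02 for Ppargc1a and -0.16 to 0.58 for Tfam. Injury in WT ran from -0.15 to 0.20 for Ppara, -0.0031 to 0.26 for Ppard, -0.03 to 0.30 for Esrrb and -0.13 to 0.61 for Tfam. Injury in KO ran from -0.09 to 0.62 for Ppard, -0.38 to 0.30 for Pparg, -0.04 to 0.47 for Esrra and -0.06 to 0.89 for Tfam. The interaction ran from -0.60 to 0.02 for Ppargc1a, -0.26 to 0.44 for Ppard, -0.33 to 0.18 for Esrra, -0.06 to 0.37 for Esrrb, -0.11 to 1.09 for Esrrg, -0.08 to 0.94 for Nrf1 and -0.30 to 0.66 for Tfam. Ppara, Esrrb and Esrrg lie where 3 reads of the shallowest library, 1.60 RPM, exceed or approach their level.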
